A study of Mus musculus with 4 samples.

Results

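The 10 genes described here are the metallothionein genes Mt1 and Mt2 and 8 genes of the NRF2 antioxidant pathway, Nfe2l2, Keap1, Gclc, Gclm, Txnrd1, Srxn1, Nqo1 and Hmox1. They were taken by symbol from a gene table of 24339 genes, and all 10 were found. The table gives expression in mouse kidney mesenchymal nephron progenitors that were sorted for GFP by flow cytometry, with polyadenylated RNA sequenced in 4 libraries. A pair of libraries came from Six2TGC, a BAC transgenic line, and the other pair from Six2Cre, a heterozygous knock-in at Six2 (Six2 Cre/+) in which a self-cleaving peptide links GFP-Cre to Six2. Cells of both lines make Cre recombinase fused to GFP from the control regions of Six2, a transcription factor gene of nephron progenitors, and the 4 libraries analysed here include none from cells without GFP-Cre. The sample labels give no age, and the name of the deposited table carries the term E18. Whether a line's libraries came from separate animals, litters or pools is not stated in the labels, and the p-values therefore cover only the spread between the libraries, which may be technical.

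NRF2, the product of Nfe2l2, is a transcription factor that KEAP1 holds at a low level by feeding it to a ubiquitin ligase. Electrophiles and oxidants modify cysteines of KEAP1, NRF2 then accumulates, and with a small MAF protein it binds antioxidant response elements beside genes for glutathione synthesis, thioredoxin reduction and detoxification. Metallothioneins are small cysteine-rich proteins that bind zinc and copper, and their genes are switched on by the zinc-sensing factor MTF1 through metal response elements. Kidney tubules are a well-known site of both systems.

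Most of the tested antioxidant and metallothionein genes had no call between the lines, which does not show equal levels. Of the 9 members with a mean of at least 1 FPKM (fragments scaled to transcript length and to library size), 3 were lower in Six2TGC, 0 were higher and 6 had no call in limma on log2(FPKM + 1) at a Benjamini-Hochberg adjusted p under 0.05. The background was high, since 24.3% of all 11917 genes tested were called, 13.5% lower and 10.8% higher in Six2TGC. The share of 33.3% of 9 genes, all of them lower, stands beside 24.3% in either direction and 13.5% lower. These shares were not compared by a test, and 9 genes are few. The 3 lower genes were Nfe2l2, Txnrd1, which encodes the cytosolic thioredoxin reductase, and Nqo1, which encodes a quinone reductase. At an unadjusted p under 0.05, limma gave the same number of lower members and 1 higher member, Mt1. By the authors' deposited table, a single member was significant, Txnrd1 (1 of 10), where 13.5% of 12158 genes were (6.52% lower and 6.94% higher in Six2TGC). The largest change in the metallothionein cluster was outside the 10 genes, in Mt3, which was 17.5-fold higher in Six2TGC (10.2-fold to 61.4-fold with 1 library left out) and had a q-value of 0.0862 in the authors' deposited table.

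The promoters of the metallothionein genes are shown because Mt3, Mt2 and Mt1 lie side by side. Of these, only Mt3 was called in limma with all libraries and no covariate. On chromosome 8 (mm10, GENCODE M21), Mt3 lies at 94152607 to 94154146, Mt2 at 94172664 to 94173568 and Mt1 at 94179082 to 94180327, all on the plus strand, with 18.52 kb between Mt3 and Mt2 and 5.51 kb between Mt2 and Mt1. The 250 bases before the RefSeq start (GRCm38.p6, plus strand) are printed with matches to the metal response element core, TGCACNC or TGCGCNC on either strand, in capitals. The windows are chr8:94152357-94152606 for Mt3, chr8:94172368-94172617 for Mt2 and chr8:94178839-94179088 for Mt1.
Mt3: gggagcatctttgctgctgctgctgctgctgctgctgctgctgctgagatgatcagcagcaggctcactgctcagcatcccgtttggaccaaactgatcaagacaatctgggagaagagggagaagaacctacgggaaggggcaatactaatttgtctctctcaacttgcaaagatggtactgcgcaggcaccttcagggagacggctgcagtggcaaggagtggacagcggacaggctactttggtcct
Mt2: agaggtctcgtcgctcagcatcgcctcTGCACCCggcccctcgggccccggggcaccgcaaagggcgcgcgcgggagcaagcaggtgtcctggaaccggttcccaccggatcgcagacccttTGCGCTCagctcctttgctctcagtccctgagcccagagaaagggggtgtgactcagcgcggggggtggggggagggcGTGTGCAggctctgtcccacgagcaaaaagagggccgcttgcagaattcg
Mt1: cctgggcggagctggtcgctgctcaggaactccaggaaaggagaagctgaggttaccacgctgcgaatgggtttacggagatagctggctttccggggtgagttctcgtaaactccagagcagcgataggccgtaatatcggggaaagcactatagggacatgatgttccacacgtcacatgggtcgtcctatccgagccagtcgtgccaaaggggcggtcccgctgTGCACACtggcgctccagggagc
The core was matched 3 times before Mt2, 1 time before Mt1, from base 23 to base 17 before the start, and 0 times before Mt3. Only the bases before 1 RefSeq start of each gene were searched. GENCODE M21 lists 3 transcripts each of Mt1 and Mt3 and 2 of Mt2. It places the start of Mt2 at 94172664, past the end of its window. Elements outside the windows were not searched, so the counts are not totals for a gene. Of all 32851 promoter windows of this length, 21.4% hold a match.

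For the NRF2 genes, the windows of Nfe2l2 (chr2:75704664-75704913, minus strand) and of the second of 3 listed starts of Txnrd1 (chr10:82858956-82859205, plus strand) are shown because these genes were called lower and hold a match to the antioxidant response element core. Capitals mark that core, TGACNNNGC on either strand.
Nfe2l2: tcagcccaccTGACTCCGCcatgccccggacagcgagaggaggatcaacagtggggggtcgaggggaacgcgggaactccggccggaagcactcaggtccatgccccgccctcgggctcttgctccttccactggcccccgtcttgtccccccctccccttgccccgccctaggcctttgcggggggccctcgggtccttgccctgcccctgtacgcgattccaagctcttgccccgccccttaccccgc
Txnrd1: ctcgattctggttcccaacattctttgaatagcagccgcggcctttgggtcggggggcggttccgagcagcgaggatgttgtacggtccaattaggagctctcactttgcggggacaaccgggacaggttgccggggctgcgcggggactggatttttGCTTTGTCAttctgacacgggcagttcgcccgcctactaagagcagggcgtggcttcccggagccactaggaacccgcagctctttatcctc
The 8 members with a promoter in the RefSeq table have 10 windows, and 4 of these windows held the antioxidant core (Mt2, Gclm, 1 start of Txnrd1 and Nfe2l2), against 10.2% of all 32851 windows. Nqo1, which was called lower too, held none in this window, as did both other starts of Txnrd1. The match of Mt2, from base 79 to base 71 before its start, overlaps an AP-1 site (TGANTCA). AP-1 sites were found before Mt2 and Srxn1, 2 of the 10 windows, and in 6.75% of all windows. Metal response cores were also found before Gclm and Srxn1. Only the letters given were searched, so a window without a match, such as that of Srxn1 for the antioxidant core, may hold another form of the element. These matches describe letters in the sequence and do not show binding.

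The levels of the 10 genes spanned from about 1 to 40 FPKM, and the order was similar in each library. By the mean over the 4 libraries, Keap1 stood highest at 37.8 FPKM, followed by Txnrd1 at 29.6, Mt1 at 18.8, Nfe2l2 at 13.1, Gclc at 9.67, Gclm at 7.83, Mt2 at 4.19, Nqo1 at 2.83, Hmox1 at 1.51 and Srxn1 at 0.976. Neighbours in that order whose ranges over the 4 libraries overlapped were Keap1 and Txnrd1, Txnrd1 and Mt1, Mt1 and Nfe2l2, Gclc and Gclm, and Mt2 and Nqo1. The order of the top genes changed between libraries, with Mt1 above Txnrd1 in Six2TGC replicate 1, Txnrd1 above Keap1 in Six2Cre replicate 1 and Mt1 below Nfe2l2 in Six2Cre replicate 2. In every library Gclc, Gclm, Mt2, Nqo1, Hmox1 and Srxn1 followed in this order.

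**Figure D1:**
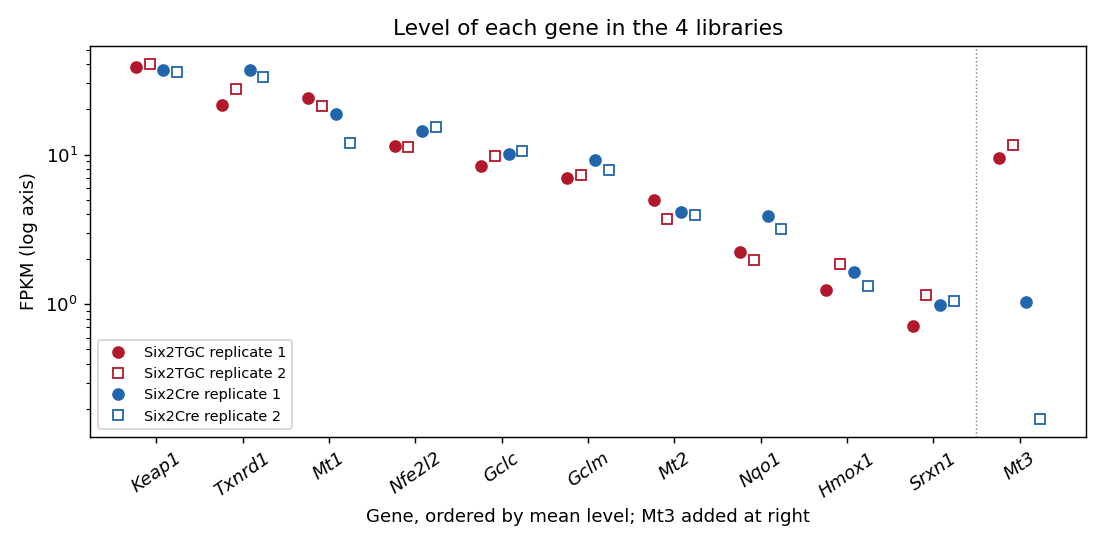
FPKM (log axis) of the 10 genes, ordered by mean level, and of Mt3, with 1 point for each of the 4 libraries (red Six2TGC, blue Six2Cre). Most genes stand at similar levels in all libraries, while Mt3 stands at 9.49 and 11.6 in Six2TGC, against 1.03 and 0.172 in Six2Cre.

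Libraries were compared before the results. By the steps between low values, both Six2Cre libraries were deeper (1.85 and 1.87 times Six2TGC replicate 1) while Six2TGC replicate 2 stood at 0.958, so genes near 1 FPKM were measured less precisely in Six2TGC. Only Six2TGC replicate 1 had RNA of the Y-linked gene Ddx3y (12.7 FPKM, with 0 in the other 3), and the fits without that library are given below. The X-linked gene Xist stood at 0.0107 FPKM in that library, against 75.7 in Six2TGC replicate 2 and 56.7 and 60.6 in Six2Cre. By these genes, sex was not balanced between the lines. Progenitor markers were present in all 4 libraries, and their sum over 10 markers was 1906 and 1994 FPKM in Six2TGC, against 2631 and 2542 in Six2Cre. Of these 10, 6 were lower in Six2TGC, among them Cited1 (8.77-fold), and 1, Six2, was higher (749 and 816 FPKM against 545 and 533). The 8 stroma markers summed to 142 and 117 FPKM in Six2TGC, against 93.8 and 68.5 in Six2Cre, with 3 of 7 tested higher. The summed value of 10 proximal tubule markers was 0.966 and 2.15 FPKM in Six2TGC, against 69.4 and 37.1 in Six2Cre. In bulk samples, fewer cells of a type and less RNA per cell cannot be told apart. The 22 immediate early and dissociation stress genes summed to 1786 and 1972 FPKM in Six2TGC and 5740 and 5685 in Six2Cre, and 17 of them were lower in Six2TGC. The part of these differences in the results below was not tested.

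The regulator genes are Nfe2l2, on chromosome 2 at 75675513 to 75704641, and Keap1, on chromosome 9 at 21229730 to 21239361, both on the minus strand. Nfe2l2 stood at 11.4 and 11.2 FPKM in the Six2TGC libraries and at 14.4 and 15.2 in the Six2Cre libraries, so that the lines did not overlap. The mean was 11.3 ± 0.133 against 14.8 ± 0.555 (SD, n = 2 per line), 1.31-fold lower in Six2TGC, with a log2 fold change of -0.36 (95% interval -0.58 to -0.15, limma adjusted p = 0.0259). Keap1, the gene of its inhibitor, stood at 38.4 and 40.4 in Six2TGC, against 36.8 and 35.6 in Six2Cre. The Keap1 libraries did not overlap either, but the difference of 0.12 on the log2 scale had no call (95% interval -0.06 to 0.30, limma adjusted p = 0.296). The ratio of Keap1 to Nfe2l2, both per length, was 3.37 and 3.61 in Six2TGC, against 2.55 and 2.34 in Six2Cre. A gene on the opposite strand, Gm16754, covers 10.9% of the exonic bases of Keap1 in GENCODE M21 and is not listed in the deposited table. The Nfe2l2 call did not hold with any of the 4 libraries left out (limma adjusted p from 0.0529 to 0.178), although the log2 fold change stayed between -0.40 and -0.33. In the authors' deposited table the q-value of Nfe2l2 was 0.182.

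Gclc and Gclm encode the catalytic and the modifier subunit of glutamate-cysteine ligase, the rate-limiting enzyme of glutathione synthesis. Gclc lies on chromosome 9 at 77754535 to 77794485 and Gclm on chromosome 3 at 122245557 to 122270732, both on the plus strand. Gclc stood at 8.32 and 9.70 FPKM in Six2TGC, against 10.1 and 10.5 in Six2Cre. Gclm stood at 7.01 and 7.32 in Six2TGC, against 9.16 and 7.85 in Six2Cre. For both genes the Six2TGC libraries lay below the Six2Cre libraries without overlap, and neither difference was called. The log2 fold changes were -0.18 for Gclc (95% interval -0.44 to 0.08, limma adjusted p = 0.27) and -0.22 for Gclm (95% interval -0.49 to 0.06, limma adjusted p = 0.217). The ratio of Gclc to Gclm ranged from 1.11 to 1.34 over the libraries, with overlap between the lines. Of the 50-base stretches of Gclm transcripts in GENCODE M21, 4.58% also occur in transcripts of other genes, among them Ppia and its pseudogenes, so part of its reads may be shared.

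Thioredoxin reductase 1, the product of Txnrd1, regenerates reduced thioredoxin in the cytosol, and the gene lies on chromosome 10 at 82833951 to 82897712 on the plus strand. Txnrd1 stood at 21.4 and 27.3 FPKM in Six2TGC, against 36.9 and 32.8 in Six2Cre. Both Six2TGC libraries were lower than both Six2Cre libraries, with means of 24.4 ± 4.13 and 34.9 ± 2.91 (SD, n = 2 per line), a 1.43-fold difference. The log2 fold change was -0.51 (95% interval -0.80 to -0.21, limma adjusted p = 0.0267), and the q-value in the authors' deposited table was 0.0193. The call held without Six2TGC replicate 2 (limma adjusted p = 0.00795) and was lost without Six2TGC replicate 1 (0.0661), Six2Cre replicate 1 (0.182) or Six2Cre replicate 2 (0.0897). Its listed locus is shared with 1 other gene, Eid3. Srxn1, which encodes the sulfiredoxin that repairs overoxidized peroxiredoxins and lies on chromosome 2 at 152105516 to 152111376 on the plus strand, stood at 0.720 and 1.15 in Six2TGC, against 0.984 and 1.05 in Six2Cre. Its libraries overlapped, and with a mean of 0.976 it fell short of the minimum for the test. Without that minimum its log2 fold change was -0.07 (95% interval -0.47 to 0.33, limma adjusted p = 0.806).

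Nqo1 encodes an enzyme that reduces quinones and is the most widely used readout of NRF2. Nqo1 stood at 2.25 and 1.98 FPKM in Six2TGC, against 3.91 and 3.19 in Six2Cre, again without overlap. The means of 2.11 ± 0.195 and 3.55 ± 0.510 (SD, n = 2 per line) differed 1.68-fold, the largest ratio among the 10 genes. The log2 fold change was -0.54 (95% interval -0.90 to -0.19, limma adjusted p = 0.0386). That call was lost with any 1 library left out (limma adjusted p from 0.0589 to 0.255), and the q-value in the authors' deposited table was 0.841. Nqo1 itself covers 107388225 to 107403206 on chromosome 8 (mm10, GENCODE M21, minus strand), but the deposited table lists it with a locus of 302.4 kb that it shares with 5 other genes, among them Nob1, Nfat5 and Wwp2.

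Hmox1 encodes heme oxygenase 1, the inducible enzyme that opens the heme ring and a general stress readout, and the gene lies on chromosome 8 at 75093621 to 75100589 on the plus strand. Hmox1 stood at 1.24 and 1.85 FPKM in Six2TGC, against 1.64 and 1.33 in Six2Cre, and the lines overlapped. The log2 fold change was 0.03 (95% interval -0.41 to 0.46, limma adjusted p = 0.927). It stayed below the level of Nqo1 in all 4 libraries.

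The neighbouring genes Mt1 and Mt2 had no call in limma with all libraries and no covariate, and their changes were not tested against each other. Mt1 stood at 23.7 and 21.0 FPKM in Six2TGC, against 18.6 and 11.9 in Six2Cre, with both Six2TGC libraries above both Six2Cre libraries. The mean was 22.3 ± 1.86 against 15.2 ± 4.72 (SD, n = 2 per line), a ratio of 1.47. The log2 fold change of 0.55 had no call (95% interval 0.01 to 1.10, limma adjusted p = 0.127), and the q-value in the authors' deposited table was 0.227. The value of Mt1 depended on Six2Cre replicate 2, its lowest library. Without that library the log2 fold change was 0.25 (limma adjusted p = 0.281), and without Six2Cre replicate 1 it was 0.85 and called (0.0211). Mt2 stood at 4.99 and 3.70 FPKM in Six2TGC, against 4.12 and 3.94 in Six2Cre, and the lines overlapped, with a log2 fold change of 0.08 (95% interval -0.28 to 0.44, limma adjusted p = 0.749). Mt1 was above Mt2 in every library, by a ratio of 4.74 and 5.68 in Six2TGC, against 4.51 and 3.02 in Six2Cre. A gene on the opposite strand, Gm45774, covers 73.5% of the exonic bases of Mt2 in GENCODE M21 and is not listed in the deposited table. The sources used here do not state the strand setting of the counting, so reads of the pair cannot be told apart.

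Mt3, a metallothionein best known from brain, stood at 9.49 and 11.6 FPKM in Six2TGC, against 1.03 and 0.172 in Six2Cre. Both Six2TGC libraries were far above both Six2Cre libraries, with means of 10.5 ± 1.48 and 0.602 ± 0.608 (SD, n = 2 per line). The log2 fold change was 2.90 (95% interval 2.23 to 3.56, limma adjusted p = 0.00124), and the call held with each library left out (limma adjusted p from 0.00195 to 0.0228, log2 fold change from 2.50 to 3.29). The ratio of means depended on the low Six2Cre values, at 61.4 without Six2Cre replicate 1 and 10.2 without Six2Cre replicate 2. In the authors' deposited table its q-value was 0.0862. Mt4, the fourth gene of the family, was listed at 0 in all 4 libraries. Mt3 made up 24.9% and 31.9% of the summed FPKM of the family in Six2TGC and 4.35% and 1.07% in Six2Cre. None of the 50-base stretches of Mt3 or Mt1 transcripts occurs in another gene of GENCODE M21.

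**Figure D2:**
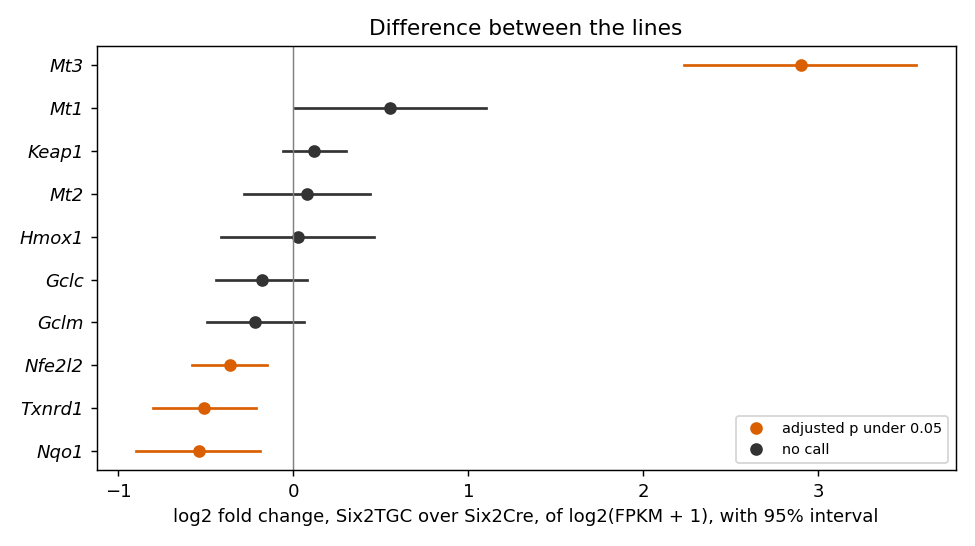
log2 fold change of Six2TGC over Six2Cre on the log2(FPKM + 1) scale with its 95% interval from limma, for the 9 tested members and Mt3. Nfe2l2, Txnrd1 and Nqo1 (orange) lie below 0 with intervals that end at -0.15 or lower, Mt3 lies at 2.90, and the 6 genes without a call are black.

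Across the 9 tested members, the libraries of the lines did not overlap for 7 genes, where 65.9% of 11916 tested genes did not. Of all 10 members, 5 were lower and 2 higher in Six2TGC without overlap, beside 36.4% lower and 29.5% higher of the tested genes. The fitted change was below 0 for 5 members and above 0 for 4, with a median of -0.18 beside -0.03 over all genes tested. The plot of adjusted p with each library left out shows the calls of Nfe2l2, Txnrd1 and Nqo1 crossing the threshold.

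**Figure D3:**
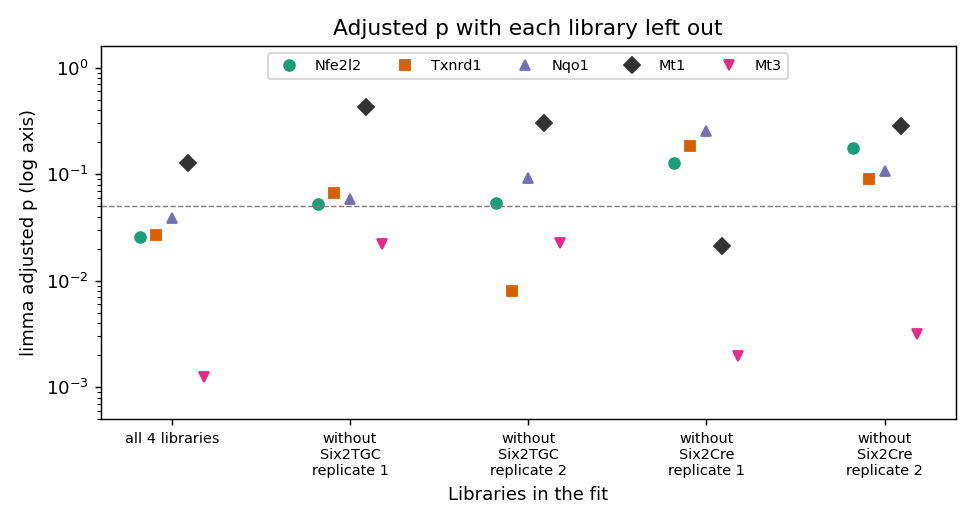
limma adjusted p (log axis) of Nfe2l2, Txnrd1, Nqo1, Mt1 and Mt3 with all 4 libraries and with each library left out, and the threshold of 0.05 as a dashed line. Mt3 stays below the line in every fit, Nfe2l2 and Nqo1 lie above it in all 4 fits with a library left out, and Mt1 falls below it without Six2Cre replicate 1.

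The wider lists of antioxidant, metal and detoxification genes held 132 genes, of which 112 were tested. Of these, 12 were higher and 21 lower in Six2TGC, or 10.7% and 18.8%, beside 10.8% and 13.5% of all genes tested, and the median was -0.06. Over all genes tested the median was -0.03. These values over all genes are the background of each list below, and no list was tested against them.

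Genes of zinc transport and the metallothionein axis were called in 1 direction by limma. Higher calls were made for 6 of 18 tested genes, lower calls for 0 and none for 12, with a median of 0.24. Over all genes tested, 10.8% were called higher and 13.5% lower. At an unadjusted p under 0.05 limma gave 0 lower. The authors' deposited table called 2 higher and 0 lower, beside 6.94% higher and 6.52% lower of all its tested genes. Limma without trend and robust settings called 3 higher and 0 lower. Besides Mt3, Slc39a3 (0.53, limma adjusted p = 0.00683), which encodes a zinc importer, and Slc30a1 (0.50, 0.0277), the zinc exporter at the cell surface, were higher. Slc30a1 stood at 5.46 and 5.24 FPKM in Six2TGC, against 3.33 and 3.66 in Six2Cre, and Slc39a3 at 15.4 and 15.6 against 10 and 10.8, without overlap for either gene. Slc30a9 rose by 0.39 on the log2 scale. Mtf1, the gene of the zinc sensor, stood at 3.23 and 3.31 in Six2TGC, against 3.25 and 3.46 in Six2Cre, with no call (-0.03). The count of higher genes was 1 without Six2Cre replicate 1, 2 without Six2Cre replicate 2 and 3 without Six2TGC replicate 1. Leaving out Six2Cre replicate 1 ended the Slc39a3 call, and the Slc30a1 and Slc30a9 calls were lost without either Six2Cre library or without Six2TGC replicate 1.

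Among 14 tested partners and regulators of NRF2, calls were higher for 2, lower for 2 and absent for 10, with a median of -0.06. The background over all genes tested was 10.8% higher and 13.5% lower. The authors' deposited table called 1 higher and 2 lower. Maff and Mafk, which encode small MAF proteins that pair with NRF2 and with BACH repressors, were lower in Six2TGC. Maff stood at 5.85 and 4.92 FPKM in Six2TGC, against 11.4 and 9.93 in Six2Cre (log2 fold change -0.87, limma adjusted p = 0.00318). Mafk stood at 5.92 and 6.38 against 9.89 and 9.28 (-0.57, limma adjusted p = 0.00951). Mafg, the third small MAF gene, had no call at 0.18. Bach2, which encodes a repressor of the same elements, was higher at 8.65 and 8.5 against 4.19 and 5.05 (0.77, limma adjusted p = 0.00494), and Nfe2l1, the paralog of Nfe2l2, rose by 0.30. Bach1 (0.08) and Cul3 (-0.09), the latter encoding the scaffold of the KEAP1 ligase, had no call. Without Six2Cre replicate 1, 0 genes of this list were called in limma, with Maff at adjusted p = 0.0567 and Bach2 at 0.0604. The Mafk call was also lost without Six2Cre replicate 2, and the Nfe2l1 call without either Six2Cre library or without Six2TGC replicate 2.

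Glutathione genes were mostly lower among those called, with 8 of 23 tested lower, 1 higher and 14 without a call, and a median of -0.25. The shares among all genes tested were 13.5% lower and 10.8% higher. The authors' deposited table called 6 lower and 1 higher, and limma without trend and robust settings 5 lower and 1 higher. Gpx3, which encodes the secreted glutathione peroxidase made by proximal tubule, stood at 8.49 and 8.97 FPKM in Six2TGC, against 44.5 and 35.6 in Six2Cre (log2 fold change -2.07, limma adjusted p = 5.11e-05). Ggt1, a brush border enzyme that breaks down glutathione, stood at 0.643 and 1.14 against 10.3 and 5.23 (-2.16, limma adjusted p = 0.00774). Gpx3 and Ggt1 are also proximal tubule genes, and the proximal tubule marker sum moved the same way, from 0.966 and 2.15 FPKM in Six2TGC to 69.4 and 37.1 in Six2Cre. Of the 10 markers, 6 were tested and 4 were lower, and the part of the markers in these changes was not tested. Slc5a2, Slc5a12 and Kap were listed at 0 in both Six2TGC libraries. Kap stood at 22.6 and 14.4 FPKM in Six2Cre. Slc5a2 (0.377 and 0.428) and Slc5a12 (0.0977 and 0.11) stood near the floor there too and were not tested. The transferase genes Gsta4 (-0.76) and Gsto1 (-0.68) were lower too, Gsta4 at 69.9 and 71.8 against 118 and 124. The 1 higher gene was Gpx7, a glutathione peroxidase gene, at 38 and 37.1 FPKM in Six2TGC, against 25.1 and 27.3 in Six2Cre (0.51, limma adjusted p = 0.00474). Gsr, which encodes glutathione reductase, fell by 0.47, and Gpx4 by 0.45. Gpx7, Gsr and Gpx4 were chosen after their values were seen. Slc7a11, the cystine importer gene of the NRF2 pathway, stood below 0.4 FPKM in all libraries. The count of lower genes was 4 without Six2Cre replicate 1 or Six2TGC replicate 2 and 5 without Six2Cre replicate 2. The Gpx3 and Gsta4 calls held with each library left out, the Ggt1 call was lost without either Six2TGC library and the Gsto1 call without Six2Cre replicate 2.

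Of 15 thioredoxin and peroxiredoxin genes tested, 5 were lower, 1 higher and 9 had no call, with a median of -0.19. The background was 13.5% lower and 10.8% higher. The authors' deposited table called 2 lower and 0 higher, and limma without trend and robust settings also 2 lower and 0 higher. Prdx1, a cytosolic peroxiredoxin gene, stood at 109 and 107 FPKM in Six2TGC, against 152 and 155 in Six2Cre (log2 fold change -0.50, limma adjusted p = 0.00248). With each library left out, its log2 fold change stayed between -0.52 and -0.49. Txnip, which encodes an inhibitor of thioredoxin, stood at 35.1 and 23.1 against 54.6 and 57.7 (-0.95, limma adjusted p = 0.0334). Prdx3, the mitochondrial peroxiredoxin gene, fell by 0.44 and Sesn1, a sestrin gene, rose by 0.37. The count of lower genes was 1 without either Six2Cre library and 3 without Six2TGC replicate 1. The Txnip call was lost without either Six2Cre library, and the Prdx3 and Sesn1 calls without either Six2Cre library or without Six2TGC replicate 1.

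Of 14 heme and iron genes tested, 3 were lower, 1 higher and 10 had no call, with a median of -0.05. Among all genes tested, 13.5% were lower and 10.8% higher. The ferritin genes Fth1 and Ftl1, which encode the iron storage protein, fell by 0.45 (limma adjusted p = 0.00213) and 0.43 (0.00243). Fth1 stood at 519 and 514 FPKM in Six2TGC, against 716 and 693 in Six2Cre. Quantile normalization reduced the fall of Fth1 to 0.18 and ended the call of Ftl1, at -0.06. Tfrc, the transferrin receptor gene, rose by 0.36, a call lost without either Six2Cre library or without Six2TGC replicate 2. The authors' deposited table called 0 higher and 1 lower in this list, with q-values of 0.1 for Tfrc and 0.0754 for Ftl1.

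Of 18 superoxide, peroxide and detoxification genes tested, 3 were lower, 0 higher and 15 had no call in limma, with a median of -0.22. The shares over all genes tested were 13.5% lower and 10.8% higher. At an unadjusted p under 0.05 limma gave 0 higher, and the authors' deposited table called 2 lower and 0 higher. Ucp2, which encodes a mitochondrial carrier, stood at 116 and 118 FPKM in Six2TGC, against 191 and 176 in Six2Cre (log2 fold change -0.65, limma adjusted p = 0.0012), a call that held with each library left out. Cyba, a subunit gene of NADPH oxidases, fell by 0.44 and Sod1, the cytosolic superoxide dismutase gene, by 0.30. The Cyba call was lost without Six2Cre replicate 1 or either Six2TGC library. The Sod1 call was lost without either Six2Cre library, without Six2TGC replicate 1 and under quantile normalization, where the value was -0.12. The count of lower genes was 1 without Six2Cre replicate 1 or Six2TGC replicate 1. Of 10 tested genes of NADPH supply, 1 was higher, Idh1 (0.30), 0 were lower and 9 had no call in limma, with a median of 0.10. At an unadjusted p under 0.05 limma gave 0 lower. The authors' deposited table called 0 in either direction, with a q-value of 0.282 for Idh1. The Idh1 call was also lost in limma without the filter (adjusted p = 0.0641), without trend and robust settings (0.0747) and without Six2Cre replicate 1, Six2Cre replicate 2 or Six2TGC replicate 1.

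**Figure D4:**
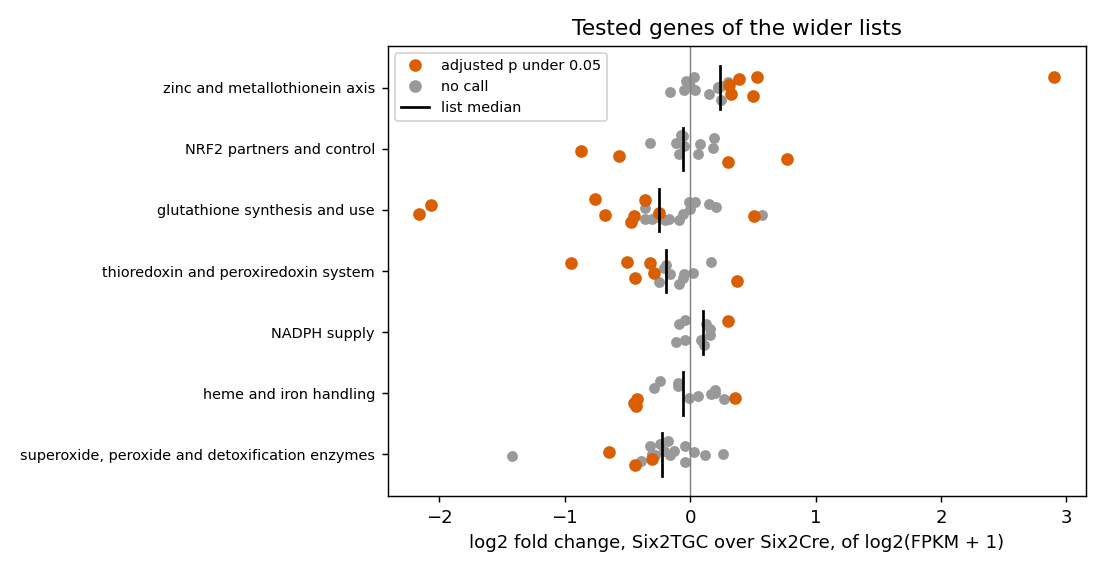
log2 fold change of Six2TGC over Six2Cre on the log2(FPKM + 1) scale of each tested gene of 7 wider lists, with called genes in orange and the list median as a bar. The zinc and metallothionein list has called genes only above 0, with Mt3 at 2.90, and the glutathione list holds the largest falls, Ggt1 at -2.16 and Gpx3 at -2.07.

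The 22 immediate early and dissociation stress genes had a larger median difference than the 7 wider lists above. Of the 22 genes, 17 were lower in Six2TGC and 0 higher in limma, with a median of -1.61. Limma called 13.5% lower and 10.8% higher over all genes tested. At an unadjusted p under 0.05 limma gave 0 higher, and the authors' deposited table called 18 lower and 0 higher. Junb, an AP-1 gene, stood at 101 and 94.2 FPKM in Six2TGC, against 405 and 405 in Six2Cre, and the orphan receptor gene Nr4a1 at 9.43 and 8.41 against 105 and 91.8. Btg2 (-2.79) and Egr2 (-2.82) were lower as well. The heat-shock gene Hspa1a stood at 1.45 and 1.66 against 7.16 and 25.6, without a call.

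Likeness of pattern was measured over the 4 libraries only and is a description. By Euclidean distance between centred log2(FPKM + 1) values, among 6956 other genes with a mean of at least 10 FPKM, the genes nearest to Mt1 included Pet117 (distance 0.13) and Msi2 (0.141). Nearest to Hmox1 were Chrac1 (0.0293), Cherp (0.0309) and Gdpd5 (0.0534), and nearest to Nqo1 were Snf8 (0.0544), Wdr53 (0.0666) and Ocm (0.0692). This scale shrinks the changes of the low genes Hmox1 and Nqo1 more than those of genes at 10 FPKM, so near genes can differ in fold change. The lines overlapped for Hmox1, so its matches follow differences between libraries of a line.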

How the data were processed

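HISAT2, Cuffdiff and the build mm10 are named in the submitters' processing notes, and the sources used here state no versions, annotation or strand setting. Per the file headers, the deposited values are FPKM for every gene in each of the 4 libraries, with the mean FPKM of each line. The deposited table also holds the test score, p-value and q-value of the authors' own comparison. FPKM corrects for length and library size, but reads shared by gene copies or by overlapping genes were divided in a way the table does not record. No read counts are given, so only relative depth was estimated, from the most frequent ratio of low values. No value above 0 was equal between libraries.

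Genes with a mean of at least 1 FPKM over the 4 libraries were tested two-sided on log2(FPKM + 1) by limma 3.58.1 (R 4.3.3), its empirical Bayes step set to trend and robust, with Benjamini-Hochberg adjustment over all 11917 genes and a threshold of 0.05. Fold changes are Six2TGC over Six2Cre on this scale, which understates the change of low genes, and ratios are of mean FPKM. No covariate was used. The labels give no batch, and a batch that follows the lines cannot be told apart from them. Library names are numbered in sequence within each line and far apart between the lines, and what the numbers stand for is not stated. An exact permutation test of 2 against 2 libraries cannot go below p = 0.333 and was not used. The fit was run on simulated data with normal noise drawn from its own fitted spread, where 200 of 11917 genes changed by 1 or 2 log2 units. It called 82.2% and 97.7% of these, and 5.69% of its calls were false. Changes as small as those of the called members were not simulated.

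The members and the gene lists were chosen with earlier results of these data known. Genes named are the 10 members, up to 4 called genes of each list with the largest changes and the nearest genes by distance. Outside that rule, these were picked with their values known: Mtf1, Mafg, Bach1, Cul3, Gpx7, Gsr, Gpx4, Cited1, Six2, Slc7a11, Hspa1a and the proximal tubule genes. Promoter sequences are from RefSeq (GRCm38.p6), with 8 of 10 members matched. The planned comparison of Mt1 and Mt2 proteins was not made. A few genes that the rule names are not reported here. Alternatives were other pseudocounts, filters and scalings, a plain empirical Bayes, a replicate block, the authors' q-values and each library left out.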

Additional observations from a re-analysis of the deposited data

How the results depend on the processing

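Over all genes, 1286 were called higher and 1614 lower in Six2TGC. The authors' q-values gave 844 and 793, and with 1 library left out the counts ran from 481 to 1222 higher and from 472 to 1514 lower. Among the members, the 3 lower calls became 1 without the filter on low values (Nfe2l2), 1 by the authors' q-values (Txnrd1) and 0 to 1 with 1 library left out. The 0 higher calls became 1 (Mt1) with a replicate block and 0 to 1 with 1 library left out. With fewer libraries the fit has fewer degrees of freedom. Other pseudocounts and both scalings gave 3 lower and 0 higher calls. Limma without trend and robust settings gave 2 lower members (Txnrd1 at an adjusted p of 0.0727), 945 genes higher and 1090 lower, and ended the calls of Slc30a9, Nfe2l1, Prdx3, Sesn1, Idh1, Cyba and Sod1. The authors' q-values ended these 7 calls too, with those of Mt3, Ftl1 and Tfrc. Without the filter, the calls of Nfe2l1, Prdx3, Sesn1, Idh1 and Cyba were lost. With 1 library left out, the log2 fold change of Mt2 ran from -0.10 (without Six2TGC replicate 1) to 0.25 and that of Hmox1 from -0.15 (without Six2TGC replicate 2; -0.06 without Six2Cre replicate 2) to 0.20, changing sign without a call.

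The lines share the replicate numbers 1 and 2 in the labels, but same-numbered libraries did not deviate together (r = -0.0399 across 11917 genes, which are not independent replicates). With the replicate block, 1179 genes were called higher and 1534 lower, Mt1 reached a limma adjusted p of 0.0274 and the Sesn1 call was lost (0.0578). The filter of at least 5 FPKM left out Nqo1, Mt2 and Hmox1, so it gave no value for them. Relative depth was lower in the Six2TGC libraries, and absolute depth is unknown.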
